A study of Mus musculus with 10 samples.

Results

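Kinesins are motor proteins that turn over ATP to step along microtubules. Kinesin-1, kinesin-2 and kinesin-3 motors carry vesicles, organelles and RNA through the cytoplasm, mostly toward microtubule plus ends. Other families slide the microtubules of the spindle, shorten their ends or finish cytokinesis, and a further group builds or works inside cilia. Transport motors such as *Kif1a*, *Kif5a* and *Kif5c* are best known from neurons, whereas *Kif5b* is found in most cells. The mitotic motors are made by dividing cells, and the embryo at gastrulation divides fast.

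The family was taken as every row of the gene table whose symbol is *Kif* followed by a number and an optional letter from a to c, or is *Kifc1*, *Kifc2* or *Kifc3*. This gave 39 of the 20974 genes in the table. They were sorted by role into 17 transport, 12 mitotic and 6 cilium kinesins and 4 others. The libraries came from 10 single whole mouse embryos at embryonic day (E) 7.5, obtained by crossing *Rreb1*+/- parents of a line labelled CD1 (the study describes a mixed background), with the parietal endoderm taken off for genotyping. There were 5 *Rreb1*+/+ embryos with both wild-type alleles. The other 5 were *Rreb1*-/- embryos, homozygous for CRISPR deletions within exon 6 of *Rreb1*, which encodes a zinc finger transcription factor. The study pooled a larger and a smaller deletion, and which of them each embryo carried is not given in the sources used here. The embryos are named by genotype and replicate number, which runs from 2 to 6 in both genotypes.

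Each value is a normalized count, the reads of a gene in an embryo divided by that embryo's size factor. Counted reads came to 31467800 to 35786900 per embryo. *Rreb1* itself was counted over the whole gene and measured 2365 to 2924 in *Rreb1*+/+ and 3988 to 5715 in *Rreb1*-/- embryos. Because the deletion removes only part of exon 6, this level does not check the genotype labels. The summed level of 4 Y-linked genes was 0 to 3.82 in the *Rreb1*+/+ embryos and 2.12 in *Rreb1*-/- replicate 2, but 5849 to 9171 in *Rreb1*-/- replicates 3 to 6. Genotype and sex therefore separate only through 1 mutant embryo, so fits with the log2 of this sum as a covariate are given beside the calls. In RNA from whole embryos, fewer cells of a type and less RNA per cell cannot be told apart. The study describes mutants from E7.5 onwards as smaller than wild-type littermates and delayed in development. A difference in stage therefore cannot be told apart from one in genotype in any value below.

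Differences between genotypes were tested with limma on log2(normalized count + 1) in the 15603 genes whose mean reached 15 in either genotype, and p-values were adjusted by Benjamini-Hochberg over all of them. This filter kept 38 kinesins. *Kif17*, a kinesin-2 motor of neuronal dendrites and cilia, stayed below it, at 3.8 to 14.3 in *Rreb1*+/+ and 3.7 to 17.7 in *Rreb1*-/- embryos, and was not tested. At an adjusted p under 0.05, 5 of the 38 kinesins rose in the mutants, which is 13.2% of them, against 3.11% of all genes tested. They were the transport motors *Kif5c*, *Kif5a* and *Kif3c*, the cilium motor *Kif19a*, and *Kif12*. None of the 38 fell by this test, against 1.15% of all genes, while 3 (7.89%) were lower at an unadjusted p under 0.05, against 8.21% of all genes. By edgeR 0 were called lower and by DESeq2 1. *Kif5a*, *Kif5c* and *Kif12* had already been picked out by the study from these same embryos, so their direction here is not independent evidence.

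The 250 bases before the annotated start are shown for the risen kinesins that had a promoter window in the reference, because these are the members the comparison turns on. The sequences are from RefSeq (GRCm38.p6), which held a window for 31 of the 39 kinesins. *Kif5a* and *Kif19a* are not shown. Each runs 5′ to 3′ on the gene's strand, at chr2:49619036-49619285 on the plus strand for *Kif5c*, chr4:63172132-63172381 on the minus strand for *Kif12* and chr12:3364882-3365131 on the plus strand for *Kif3c*. Capitals mark TGACGTCA, the cyclic AMP response element.
Kif5c: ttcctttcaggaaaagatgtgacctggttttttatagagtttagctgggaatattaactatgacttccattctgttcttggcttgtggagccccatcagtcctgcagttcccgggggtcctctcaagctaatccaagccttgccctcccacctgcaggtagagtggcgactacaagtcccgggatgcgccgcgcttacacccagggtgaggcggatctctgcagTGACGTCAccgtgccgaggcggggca
Kif12: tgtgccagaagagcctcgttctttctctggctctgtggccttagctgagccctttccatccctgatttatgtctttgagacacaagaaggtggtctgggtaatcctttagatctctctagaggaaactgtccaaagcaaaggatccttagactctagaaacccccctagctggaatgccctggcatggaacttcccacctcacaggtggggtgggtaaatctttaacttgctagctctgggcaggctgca
Kif3c: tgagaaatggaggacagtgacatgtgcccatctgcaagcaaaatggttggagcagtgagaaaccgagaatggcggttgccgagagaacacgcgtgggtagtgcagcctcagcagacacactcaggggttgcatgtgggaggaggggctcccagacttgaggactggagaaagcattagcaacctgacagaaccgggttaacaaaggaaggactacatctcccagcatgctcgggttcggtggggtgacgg

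In the *Kif5c* window the response element began 26 bases before the RefSeq start, which lies 12 bases upstream of the GENCODE start that gives the gene's position in the next paragraph. Read on both strands, it lay in 508 of all 32817 promoter windows (1.55%), and among kinesins in those of *Kif5c* and *Kif17*. The GC box GGGCGG was in 32.7% of all windows and in 19 of 31 kinesin windows, among them those of *Kif3a*, *Kif3b* and *Kif11*, but in none of the 3 shown. Neither CCCCAAACC, the start of the RREB1 binding consensus, nor TTCAGCACC, the left part of the neuronal repressor element, was in any kinesin window, against 0.561% and 0.302% of all windows. These letters were chosen after the sequences and values had been seen, and none of the 4 motifs contains another. The GC content was 55.2% for *Kif5c*, 50.4% for *Kif12* and 55.6% for *Kif3c*, with a median of 52.4% over all windows. A match or its absence describes only the letters in the window.

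Kinesin-1 is the founding transport motor, built from heavy chains encoded by *Kif5a*, *Kif5b* and *Kif5c* together with light chains. *Kif5c* (chromosome 2, 49619298 to 49774778, GRCm38) measured 1211.8, 1330.2, 1292.8, 1420.3 and 1316.9 in *Rreb1*+/+ replicates 2 to 6, and 2916.1, 2710, 3121.9, 3152.2 and 2872.7 in *Rreb1*-/- replicates 2 to 6. The genotypes were far apart, with the lowest mutant embryo well above the highest *Rreb1*+/+ embryo. The mean rose from 1314 ± 75.0 to 2955 ± 184 (SD, n = 5 each), a log2 fold change of 1.17 (SE 0.06, adjusted p = 5.57e-06, limma), or 2.25-fold with a 95% interval of 2.04 to 2.48. Replicate 2, the mutant with a Y-linked sum of only 2.12, lay inside the range of the other 4 mutants. A fit that took the Y-linked sum as covariate gave a log2 fold change of 1.14 (adjusted p = 0.00356, limma), and adjusted p-values over the 22 other ways of fitting ran from 1.07e-63 to 0.0153.

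*Kif5a* (chromosome 10, 127225696 to 127263348) encodes the neuron-enriched heavy chain. It measured 270.6, 404.6, 360.9, 217 and 253.4 in *Rreb1*+/+ replicates 2 to 6, and 452.5, 642.2, 700.8, 708.1 and 534.1 in the mutants of the same numbers. The lowest mutant was replicate 2, the one with hardly any Y-linked reads, and it still exceeded every *Rreb1*+/+ embryo. The mean rose from 301 ± 78.4 to 608 ± 111 (SD, n = 5 each), a log2 fold change of 1.03 (SE 0.19, adjusted p = 0.00987, limma). The call did not hold in the fit with the Y-linked covariate, where the value was 0.62 (adjusted p = 0.306, limma), and adjusted p-values over 22 other ways of fitting ran from 1.51e-05 to 0.306.

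*Kif5b*, the ubiquitous heavy chain, was the most abundant of the 3 genes. It measured 9817.8, 9515.1, 8675.1, 9970.1 and 9055.6 in *Rreb1*+/+ replicates 2 to 6, and 10801.8, 9727.1, 10752.6, 9486.2 and 9719.6 in the mutants. The genotypes overlapped, and the log2 fold change of 0.10 had a 95% interval of −0.03 to 0.23 (adjusted p = 0.401, limma).

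**Figure D1:**
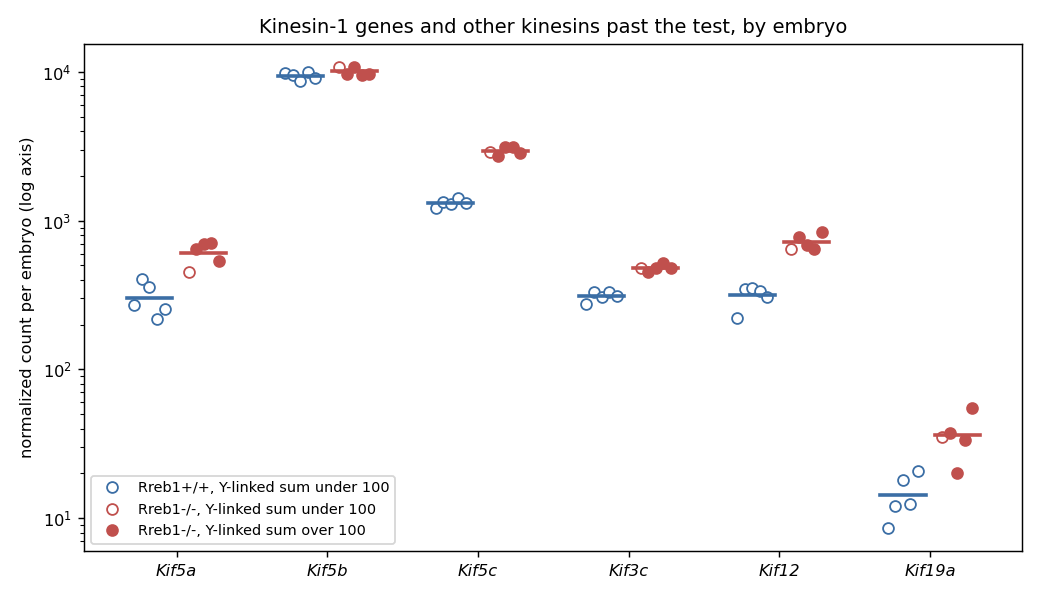
Normalized counts (log axis) of the kinesin-1 genes and of the other kinesins past the test, 1 point per embryo and a bar at each genotype's mean; open points are embryos with a Y-linked sum under 100. *Kif5c* separates the genotypes most clearly, 1211.8 to 1420.3 against 2710 to 3152.2, whereas *Kif5b* overlaps and *Kif19a* is low throughout.

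Per kilobase of exon, *Kif5c* stood at 184 ± 10.5 in *Rreb1*+/+ embryos and 414 ± 25.7 in mutants (SD, n = 5 each), and *Kif5a* at 43.1 ± 11.2 and 86.9 ± 15.9. *Kif5b* stood at 1179 ± 67.4 and 1265 ± 78.7. Of the 3 genes' summed level per kilobase, *Kif5c* made up 11.8% to 13.7% in *Rreb1*+/+ and 22.4% to 25.5% in mutant embryos. The share of *Kif5a* was 2.10% to 4.03% and then 3.54% to 5.85%, overlapping between genotypes. *Kif5b* remained the main heavy chain transcript in every embryo, with 82.4% to 85.5% in *Rreb1*+/+ and 68.7% to 74.1% in mutant embryos. The sum itself was 1320 to 1479 per kilobase in *Rreb1*+/+ and 1690 to 1885 in mutant embryos. Because these shares add to the whole, a lower share of *Kif5b* is not a lower level.

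**Figure D2:**
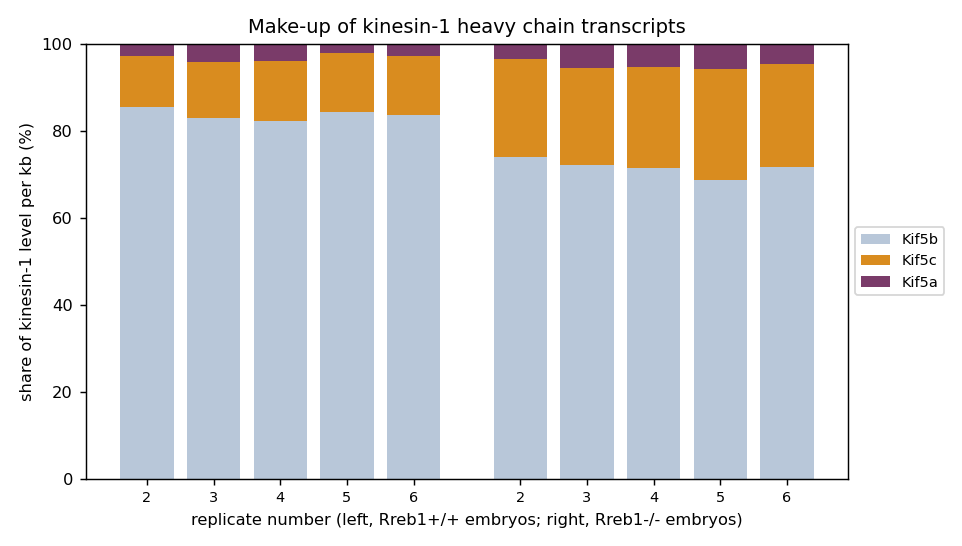
Share of *Kif5a*, *Kif5b* and *Kif5c* in the kinesin-1 heavy chain level per kilobase of exon (%), 1 stacked bar per embryo, *Rreb1*+/+ on the left and *Rreb1*-/- on the right. The *Kif5c* segment is 11.8% to 13.7% in *Rreb1*+/+ and 22.4% to 25.5% in *Rreb1*-/- embryos.

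The kinesin-2 motors made from *Kif3* genes work in cilia and in the cytoplasm as a pair of different heavy chains with the adaptor KAP3. *Kif3c* (chromosome 12, 3365132 to 3406494), which pairs with *Kif3a* and is enriched in neural tissue, measured 277.3, 330.3, 307.4, 329.4 and 309.9 in *Rreb1*+/+ replicates 2 to 6, and 479, 455.1, 483.2, 518.5 and 484 in the mutants. All mutants were above all *Rreb1*+/+ embryos, with little spread in either genotype. The mean rose from 311 ± 21.6 to 484 ± 22.7 (SD, n = 5 each), a log2 fold change of 0.64 (SE 0.08, adjusted p = 0.00134, limma). With the Y-linked covariate the log2 fold change was 0.63 with a larger SE of 0.15, and it was no longer called (adjusted p = 0.109, limma). Adjusted p-values over 22 other ways of fitting ran from 2.85e-11 to 0.137. Of its exons, 3205 bases overlap the antisense genes *1110002L01Rik* and *Gm48512*. Whether the counting used strand is not given in the sources used here, and without strand the reads of *Kif3c* and its antisense partners cannot be told apart. *1110002L01Rik* had its own row, at 270 ± 34.0 and 300 ± 42.9 (log2 fold change 0.15, adjusted p = 0.598, limma).

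The standard kinesin-2 chains gave no call. *Kif3a*, the shared chain, measured 882.7, 840.3, 845, 956.5 and 964.6 in *Rreb1*+/+ replicates 2 to 6, and 1050.1, 824, 976.9, 1003.6 and 927.3 in the mutants. The genotypes overlapped (log2 fold change 0.09, 95% interval −0.09 to 0.27, adjusted p = 0.615, limma). *Kif3b*, its usual partner, had a log2 fold change of 0.07 with an interval of −0.06 to 0.20.

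Kinesin-3 motors carry synaptic vesicle precursors, mitochondria and endosomes. None of the 7 members in this family listed for transport or mitosis passed the test in the fit without a block. *Kif1a*, the fast neuronal motor, measured 429.8, 675.6, 627.3, 261.2 and 267.5 in *Rreb1*+/+ replicates 2 to 6, and 553.1, 1014.2, 905.8, 788 and 528.8 in the mutants. The genotypes overlapped, but within each replicate number the mutant was the higher embryo. The log2 fold change was 0.81 (SE 0.30, adjusted p = 0.179, limma), and once replicate number was added as a block the same difference had an SE of 0.17 and was called (adjusted p = 0.0330, limma). With the Y-linked covariate the log2 fold change was 0.37 (adjusted p = 0.725, limma), and over 22 other ways of fitting it ran from 0.37 to 1.28, with the block as the 1 that called it. Whether the replicate numbers mark pairs was not tested, and the block brought the count of kinesins that rose to 6. Over the 5 members called without it, all stayed called.

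*Kif13b*, a motor for phosphoinositide-bearing vesicles, had the opposite sign. It measured 854.8, 824.2, 710.4, 792.3 and 714 in *Rreb1*+/+ replicates 2 to 6, and 660.1, 699.3, 658.4, 628.2 and 551.8 in the mutants. The groups did not overlap, but the log2 fold change of −0.28 (SE 0.09) missed the threshold (adjusted p = 0.107, limma). DESeq2 on the recovered reads called it lower (adjusted p = 0.0350) and edgeR did not (adjusted p = 0.121). *Kif1c*, a motor of dense-core vesicles and of invasive protrusions, had a log2 fold change of −0.24 (adjusted p = 0.182, limma). Together with *Kif5a*, *Kif5c*, *Kif3c* and *Kif12*, *Kif13b* made 5 kinesins whose genotypes did not overlap, 13.2% of the 38, against 6.7% of all genes tested.

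Over the whole transport list, 3 of 16 tested members (18.8%) rose and 0 fell, against 3.11% and 1.15% of all genes tested. Of the 16, 10 had a log2 fold change above zero, against 7351 of all 15603 genes. The median was 0.05, beside −0.02 over all genes tested. The log2 fold changes ran from −0.28 to 1.17. The median moved with the fit, to 0.13 with the Y-linked covariate, 0.099 with replicates 2 to 4 only, 0.0088 with replicates 5 and 6 only and 0.048 to 0.090 when single embryos were left out, the highest without *Rreb1*+/+ replicate 5. The summed level of the list was 27723 to 29977 in *Rreb1*+/+ and 29709 to 32580 in mutant embryos, with overlap. Of the difference of 2587 between the means, 1640 was *Kif5c*, 691 was *Kif5b* and 256 was the net of all other members. The largest terms in that net were −482 for *Kif1c* and 306 each for *Kif5a* and *Kif1a*.

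The mitotic kinesins gave no calls. Of 12 tested, 0 rose and 0 fell, against 3.11% and 1.15% of all genes, so 0 of 12 does not set this list apart. Among the 12, 4 had a log2 fold change above zero, against 7351 of all 15603 genes. The median was −0.03 with a range of −0.18 to 0.13. The Y-linked covariate left the median at −0.03 and widened the range to −0.51 (*Kif18b*) to 0.30 (*Kif20b*), still without a call (lowest adjusted p = 0.166, limma). *Kif11*, the kinesin-5 that pushes spindle poles apart, measured 9771.8, 8563.4, 7984.8, 9095.2 and 8359.4 in *Rreb1*+/+ replicates 2 to 6, and 10464.9, 8863.6, 10218.5, 8565.3 and 8348.9 in the mutants. Its genotypes overlapped widely, and the log2 fold change was 0.08 with a 95% interval of −0.09 to 0.26 (adjusted p = 0.632, limma).

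*Kif4*, an X-linked chromokinesin of the spindle midzone, was examined because the embryos differ in sex. It measured 3419.4, 3067, 2795.6, 3171.9 and 2776.1 in *Rreb1*+/+ replicates 2 to 6, and 3213.8, 2865.9, 3391.6, 2974.7 and 2589 in the mutants. Mutant replicate 2 lay among the other mutants, and the log2 fold change was −0.02 with an interval of −0.21 to 0.17. *Kif22*, a chromokinesin that moves chromosome arms, was the 1 mitotic member lower at an unadjusted p under 0.05 (log2 fold change −0.18, adjusted p = 0.261, limma). *Kifc1*, the minus-end motor that focuses spindle poles, has a near-identical copy, *Kifc5b*. How reads matching both were counted is not given in the sources used here, so the log2 fold change of −0.10 for *Kifc1* is uncertain. *Kifc5b* had its own row, at 617 ± 84.8 in *Rreb1*+/+ and 565 ± 134 in mutant embryos (log2 fold change −0.15, adjusted p = 0.688, limma).

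The other mitotic motors cover chromosome alignment (*Kif18a*, *Kif18b*), microtubule depolymerization at centromeres (*Kif2c*), spindle upkeep (*Kif15*) and cytokinesis (*Kif14*, *Kif20a*, *Kif20b*, *Kif23*). Every one of them had a 95% interval that included zero. The summed mitotic level was 48534 to 53495 in *Rreb1*+/+ and 45747 to 52598 in mutant embryos. Expressed against it, the transport sum came to 53.9%, 60.9%, 56.4%, 57.0% and 57.1% in *Rreb1*+/+ replicates 2 to 6, and 60.9%, 64.6%, 61.9%, 62.5% and 64.9% in the mutants. The lowest mutant, replicate 2, was level with the highest *Rreb1*+/+ embryo.

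**Figure D3:**
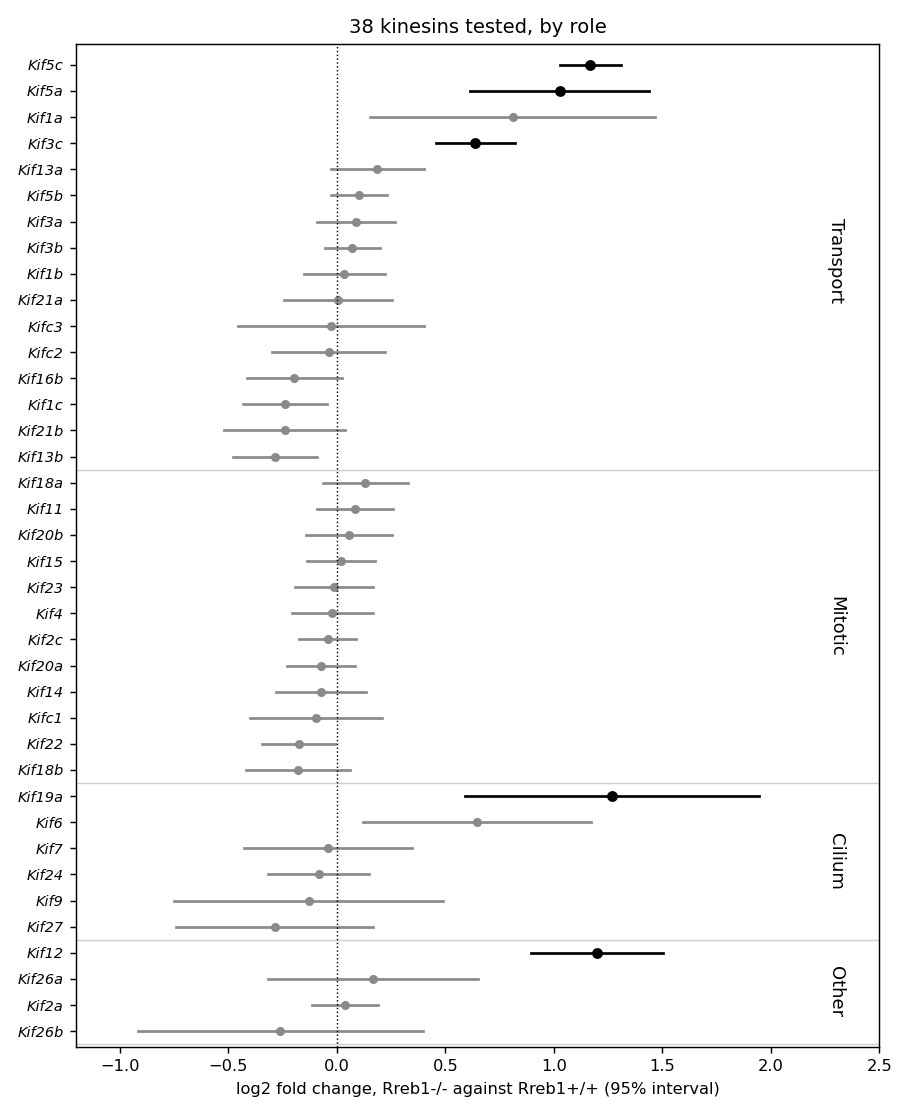
Log2 fold change of each of the 38 tested kinesins, *Rreb1*-/- against *Rreb1*+/+, with 95% intervals (limma), grouped by role and ordered by size; black marks an adjusted p under 0.05. Mitotic members lie between −0.18 and 0.13, and transport members reach from −0.28 to 1.17.

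Among the 6 cilium kinesins only *Kif19a* was called higher (16.7%, against 3.11% of all genes). *Kif19a* (chromosome 11, 114765388 to 114790739) encodes a depolymerizing motor that limits the length of motile cilia. It measured 8.6, 12, 18.1, 12.5 and 20.7 in *Rreb1*+/+ replicates 2 to 6, and 35, 37.4, 20.2, 33.5 and 55.3 in the mutants. Mutant replicate 4 lay inside the *Rreb1*+/+ range and the other 4 mutants lay above it. These values rest on 9 to 53 reads per embryo, and the mean rose from 14.4 ± 4.91 to 36.3 ± 12.6 (SD, n = 5 each), a log2 fold change of 1.27 (SE 0.31, adjusted p = 0.0425, limma). The call was lost when *Rreb1*+/+ replicate 2, 3, 4 or 5 or mutant replicate 2, 3, 5 or 6 was left out, with adjusted p-values of 0.0260 to 0.104 (limma) over all 10 such fits. It was lost with the Y-linked covariate as well, at a log2 fold change of 1.30 with a larger SE of 0.58 (adjusted p = 0.252, limma). Over 21 other ways of fitting adjusted p-values reached from 0.0135 to 0.301.

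*Kif7*, the regulator of Hedgehog signaling at the tip of primary cilia, measured 396.2, 505, 583.4, 420.6 and 572.7 in *Rreb1*+/+ replicates 2 to 6, and 316.8, 591.3, 455.5, 520.4 and 548.7 in the mutants. The genotypes overlapped (log2 fold change −0.04, 95% interval −0.43 to 0.35, adjusted p = 0.929, limma), and 928 bases of its exons overlap genes on the other strand. With the Y-linked covariate it was at −0.63, also without a call (adjusted p = 0.211, limma). Over 22 other ways of fitting, its adjusted p-values ran from 0.211 to 0.981. *Kif6* had a log2 fold change of 0.65 from a low level of 45.5 ± 12.9 (adjusted p = 0.181, limma). The spread between embryos was wide in this group, with a median coefficient of variation of 22.3% in *Rreb1*+/+ embryos, against 9.26% for transport and 8.58% for mitotic kinesins. The 6 cilium members had a median log2 fold change of −0.06.

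*Kif12* (chromosome 4, 63165630 to 63172131), a motor known from kidney and other epithelia, measured 222.6, 349.4, 353.3, 339 and 308 in *Rreb1*+/+ replicates 2 to 6, and 643.2, 776.2, 683.9, 644.9 and 835.5 in the mutants. The genotypes were clearly apart, and mutant replicate 2 was the lowest mutant. The mean rose from 314 ± 54.3 to 717 ± 85.6 (SD, n = 5 each), a log2 fold change of 1.20 (SE 0.14, adjusted p = 0.000619, limma), or 2.29-fold with an interval of 1.86 to 2.83. The Y-linked covariate left the log2 fold change at 1.04 with a larger SE of 0.25, without a call (adjusted p = 0.107, limma). Adjusted p-values over 22 other ways of fitting ran from 5.13e-14 to 0.107.

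*Kif2a*, a microtubule depolymerase active both at spindle poles and in growing axons, measured 3016.4, 2946.5, 2798.5, 2967.4 and 2712.1 in *Rreb1*+/+ replicates 2 to 6, and 3166.2, 2970.8, 3211.1, 2947.7 and 2556.6 in the mutants. Its genotypes overlapped (log2 fold change 0.04, 95% interval −0.11 to 0.19, adjusted p = 0.826, limma). *Kif26a* and *Kif26b*, unusual members that lack motor activity, had log2 fold changes of 0.17 and −0.26, with intervals that included zero.

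Exons of 15 kinesins overlap those of other genes, by 1271 bases with *Cdc23* for *Kif20a*, 1229 with *Dimt1* for *Kif2a* and 832 with *Pdzd11* for *Kif4*, so these levels are uncertain to that extent. On levels per kilobase of exon the members spanned a wide range. *Kif20a* led the family at 1960 ± 150 in *Rreb1*+/+ embryos, followed by *Kif5b* at 1179 ± 67.4 and *Kif11* at 1173 ± 93.2, which did not differ beyond their spread. Then came *Kif22* at 945 ± 75.1 and *Kif2c* at 906 ± 43.7, again within their spread. *Kif5c* was the 19th of 39 in *Rreb1*+/+ and the 12th in mutant embryos, and *Kif12* the 28th and the 18th. *Kif12* went from 92.4 ± 16.0 to 211 ± 25.2 per kilobase and *Kif3c* from 42.0 ± 2.91 to 65.3 ± 3.06. *Kif19a* was next to last in both genotypes, at 3.53 ± 1.21 and 8.92 ± 3.09, above only *Kif17*.

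**Figure D4:**
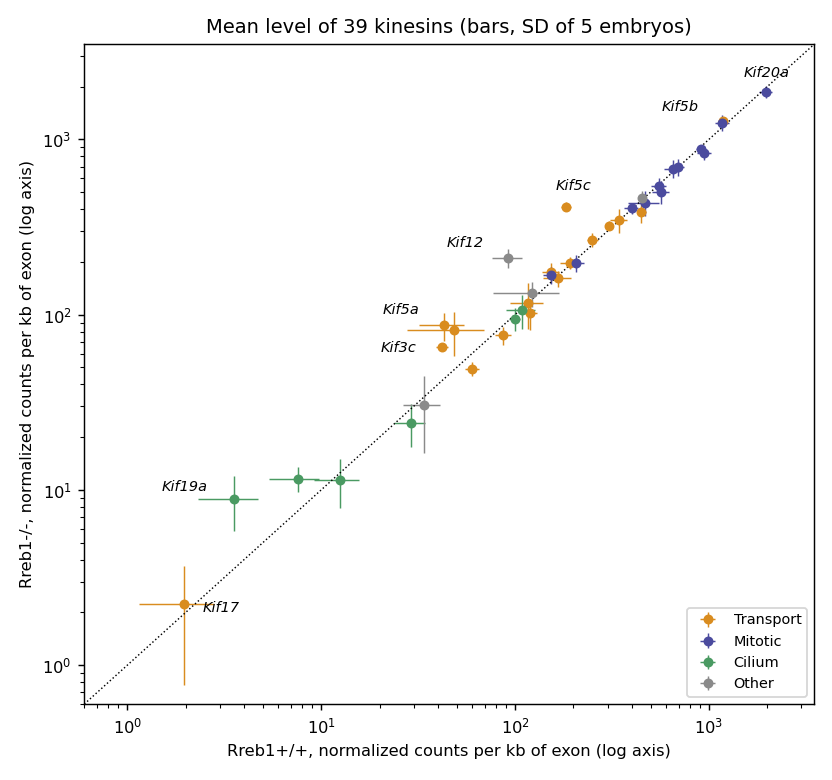
Mean level of each of the 39 kinesins in normalized counts per kilobase of exon, *Rreb1*+/+ on the horizontal and *Rreb1*-/- on the vertical log axis, coloured by role, with bars for the SD of 5 embryos and a dotted line of equality. *Kif5c* (184 to 414), *Kif12* (92.4 to 211) and *Kif5a* (43.1 to 86.9) stand above the line, and the mitotic motors lie close to it, from *Kif18a* at 153 to *Kif20a* at 1960.

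The proteins that link kinesins to cargo were examined as a list of 30, of which 28 were tested. Of these, 3 (10.7%) rose, against 3.11% of all genes, and 0 fell, with a median log2 fold change of 0.04. *Clstn2*, a calsyntenin of the family that docks cargo to kinesin light chains, rose from 50.3 ± 12.2 to 132 ± 15.6 (log2 fold change 1.40, adjusted p = 0.00216, limma). *Ppfia4*, a liprin-alpha scaffold that binds *Kif1a*, rose by 0.60 on the log2 scale (adjusted p = 0.0431, limma), and *Arl8a*, a GTPase that couples lysosomes to kinesins, by 0.34 (adjusted p = 0.0344, limma). *Kifap3*, which encodes the kinesin-2 adaptor, had a log2 fold change of 0.28 just short of the threshold (adjusted p = 0.0518, limma). The light chain genes *Klc1*, *Klc2*, *Klc3* and *Klc4* had log2 fold changes of 0.03, −0.12, 0.05 and −0.43, none of them called.

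Cytoplasmic dynein and dynactin carry cargo the opposite way, to microtubule minus ends. Of 30 tested genes of this list 1 (3.33%) rose, close to the 3.11% over all genes, and 0 fell. The median log2 fold change was 0.00. The 1 was *Bicd1*, an adaptor that joins dynein to its cargo, which rose from 454 ± 76.9 to 797 ± 72.3 (log2 fold change 0.82, adjusted p = 0.00334, limma). Of 30 mitosis regulators, 0 rose and 0 fell by limma, against 3.11% and 1.15% of all genes. Their median was 0.02. At an unadjusted p under 0.05, 2 of them (6.67%), *Incenp* and *Espl1*, were lower, against 8.21% of all genes.

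**Figure D5:**
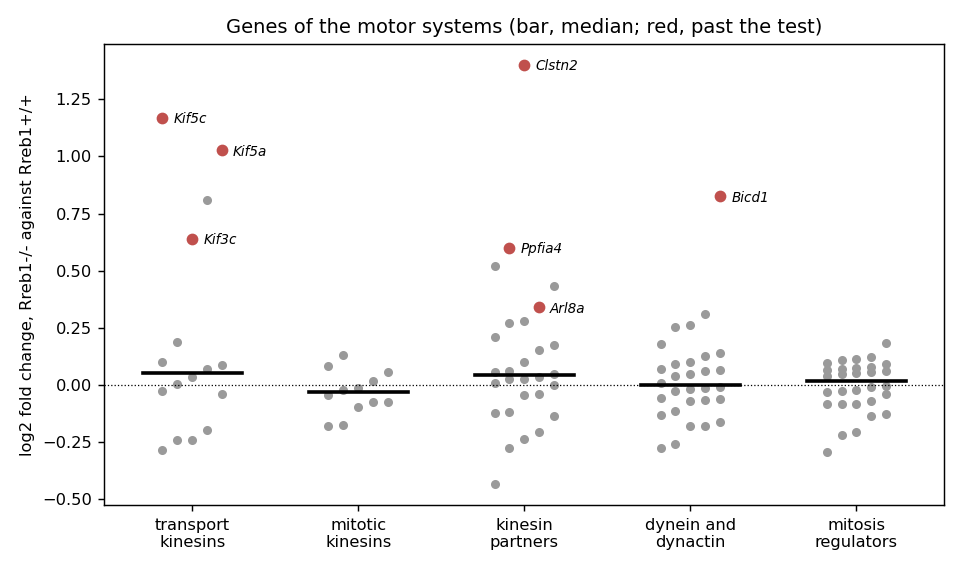
Log2 fold changes (*Rreb1*-/- against *Rreb1*+/+) of transport kinesins, mitotic kinesins, kinesin partners, dynein and dynactin genes and mitosis regulators, 1 point per tested gene, with a bar at each list's median and red for an adjusted p under 0.05 (limma). The medians lie at 0.05, −0.03, 0.04, 0.00 and 0.02, and single genes stand far above them in 3 lists.

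Neuronal markers were examined because several transport kinesins are known from neurons. The list was written with earlier results of these data known. *Tubb3* had already been picked out by the study from these same embryos, so its direction here is not independent evidence. Of 18 markers 4 (22.2%, against 3.11% of all genes) rose, *Stmn4* (5.21 ± 2.22 to 73.1 ± 49.0), *Tubb3* (625 ± 127 to 1700 ± 463), *Syt1* (31.7 ± 8.75 to 76.6 ± 17.2) and *Map2* (393 ± 95.8 to 676 ± 131), and 0 fell. The log2 fold change was below zero in 7 of the 18, the lowest being −0.27 for *Snap25*, and none of these was called. The median log2 fold change of the list was 0.08. Its summed level was 3147 to 6387 in *Rreb1*+/+ and 4952 to 8201 in mutant embryos, with overlap, and no marker was at 0 in any embryo. Whether the embryos held neurons, and any part of such cells in the kinesin values, was not tested.

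Of the other marker lists, 1 of 10 visceral endoderm genes (10%) fell (*Afp*, adjusted p = 0.0157, limma), against 1.15% of all genes. The study had already picked out *Afp* from these embryos. Of 8 extraembryonic ectoderm genes 1 (12.5%, against the same 1.15%) fell (*Esx1*, adjusted p = 0.0156, limma). Of the 10 visceral endoderm genes, 8 had a log2 fold change below zero, with a median of −0.22. The summed visceral endoderm level was 279462 to 318134 in *Rreb1*+/+ and 210312 to 303593 in mutant embryos, and the extraembryonic ectoderm sum 15689 to 23640 and 15278 to 25579. None of 9 mesoderm, 8 epiblast and 8 blood genes was called by limma. At an unadjusted p under 0.05, 1 of 9 mesoderm genes was higher, against 9.74% of all genes. At the same threshold 1 mesoderm gene (11.1%) and 2 blood genes (25%) were lower, against 8.21% of all genes. Of the 8 blood genes, 7 had a log2 fold change below zero, with a median of −1.63, and 3 were at 0 in some embryo. Their summed level was 3027 to 15071 in *Rreb1*+/+ and 1818 to 5567 in mutant embryos, with overlap. The summed mesoderm level was 13857 to 21135 and 15208 to 20434, and the epiblast sum 23548 to 57416 and 18191 to 58048. Their part in the kinesin values was not tested. With the Y-linked covariate none of the 10 partner, dynein and marker genes called above kept its call (limma, adjusted p = 0.116 for *Bicd1* to 0.292 for *Ppfia4*), with log2 fold changes in the same direction. In mutant replicate 2 each of the 10 lay outside the *Rreb1*+/+ range in the direction of its call. For *Map2* the lowest of the other mutants, at 525, lay inside that range, which reached 531. The calls were made with replicate 2 among the mutants, so its position is not an independent check.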

How the data were processed

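Single E7.5 embryos (5 *Rreb1*+/+, 5 *Rreb1*-/-) were profiled by stranded, paired-end sequencing of polyA RNA. The authors aligned reads with STAR in a double pass, processed them with Picard, counted them with HTSeq and normalized with DESeq. Versions, genome build, gene models and strand setting were not given in the sources used here. The deposited signal is thus, for each gene, the read count over the embryo's size factor. In each embryo all values (100%) proved to be multiples of 1 step (tolerance 0.1 read), and edgeR 4.0.16 and DESeq2 1.42.0 were run on these recovered reads as alternatives, with calls given beside the results.

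Genotypes were compared with limma 3.58.1 in R 4.3.3 (trended variance, pseudocount 1, 15603 genes, Benjamini-Hochberg over all). Because of the pseudocount, the fold changes of low genes are understated. limma, edgeR and DESeq2 were tested on simulated data first. Members, alternatives and the role, partner and marker lists were chosen with earlier results of these data known. Every member could be named. Values in every embryo were set for called members and for *Kif5b*, *Kif3a*, *Kif11*, *Kif7*, *Kif2a* and *Kif4*, and are also given for *Kif1a* and *Kif13b*, chosen after their values were seen. *Kif28* and *Kif2b* were not analysed here. Positions and exon lengths are from GENCODE M21 (GRCm38).

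Deviations from the genotype means correlated between embryos of the same replicate number (0.253 to 0.459 over the 5 numbers). Embryos of different numbers were not compared in this way, so these values cannot show that the numbers mark pairs. The fit with a replicate block is given only as an alternative. Each embryo is a separate animal. Arms of 5 limit precision for low genes.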

Additional observations from a re-analysis of the deposited data

How the results depend on the processing

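Of 23 alternatives, *Kif5c* kept its call in all 23, *Kif12*, *Kif3c* and *Kif5a* in 21 each and *Kif19a* in 10, where 1 further setting left it untested. The 5 kinesins that rose became 1 (*Kif5c*) in the fit with the Y-linked covariate, 3 (*Kif12*, *Kif3c*, *Kif5c*) with replicates 2 to 4 only and 2 (*Kif5a*, *Kif5c*) with replicates 5 and 6 only, the last pair of fits having fewer samples. They were 4 to 5 when single embryos were left out. The 0 that fell became 1 (*Kif13b*) with DESeq2. Of all genes 665 were called, against 1213 with DESeq2, 1072 with the replicate block, 107 with the Y-linked covariate, 104 with replicates 5 and 6 only, 284 at an adjusted p under 0.01 and 443 to 642 without single embryos. The lowest, 443, was without *Rreb1*+/+ replicate 3. The replicate block added *Kif1a* to the kinesins that rose (6) and changed no other kinesin call.

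Of the 11 members followed through every alternative, signs changed only in 4 that were never called. The log2 fold change of *Kif4* was 0.080 with the Y-linked covariate, 0.031 with replicates 2 to 4 and −0.065 to 0.032 without single embryos. With replicates 5 and 6 only, *Kif11* was at −0.044, *Kif7* at 0.12 and *Kif2a* at −0.047, and *Kif7* ran from −0.12 to 0.11 without single embryos. Without a change of sign, the Y-linked covariate took *Kif7* to −0.63 and *Kif11* to 0.27. The median of the mitotic kinesins ran from −0.060 to −0.0032 without single embryos, the last without mutant replicate 6. The cause of these changes was not tested. No scaling moved the median of all genes by more than 0.1. Depth limits *Kif19a* and *Kif17*, which rest on 9 to 53 and 4 to 17 reads per embryo.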

Other observations

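Replicates 5 and 6 differed from replicates 2 to 4 in some kinesins within a genotype. *Kif26b*, an atypical kinesin of mesenchyme, was the 1 member whose mean log2 level differed by over 0.5 in the same direction in both genotypes, by 0.52 in *Rreb1*+/+ and 1.17 in mutant embryos. It measured 470.1, 433.7, 372.4, 575.2 and 637.7 in *Rreb1*+/+ replicates 2 to 6, and 258.5, 405.3, 243.2, 648.6 and 683.2 in the mutants. *Kif1a* went the other way, by −1.10 in *Rreb1*+/+ and −0.31 in mutant embryos. The median size of this difference was 0.07 in *Rreb1*+/+ and 0.16 in mutant embryos for mitotic kinesins, and 0.13 and 0.11 for transport kinesins. These are values of the samples as numbered, and no batch is named in the labels.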
